A study of Mus musculus with 18 samples.

Results

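The Hox genes of paralogue groups 11 to 13 are the genes at the 5′ ends of the mouse Hox clusters. They were chosen by name, and all 9 were found among the 53465 gene identifiers of the count table. Group 11 has 3 members (Hoxa11, Hoxc11 and Hoxd11), group 12 has 2 (Hoxc12 and Hoxd12) and group 13 has 4 (Hoxa13, Hoxb13, Hoxc13 and Hoxd13). They were followed in 18 RNA sequencing libraries from 9 mouse embryos at embryonic day 9. Every embryo was cut into 2 pieces, each sequenced as 1 library: a posterior piece, made of the axial bud and the newest 10 to 12 somites, and an anterior piece with the older somites. Of the embryos, 5 were labelled Control, with no alleles given, and 4 were labelled DKO. In the DKO embryos both Meis1 and Meis2 were deleted conditionally with Delta1Cre, a Cre recombinase driven by Dll1, a Notch ligand gene of the presomitic mesoderm, so cells in which Dll1 was never active keep both genes. The pieces hold every tissue of their level of the axis, and in such bulk samples fewer cells of a type and less RNA per cell cannot be told apart.

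Hox genes code for homeodomain transcription factors that give cells their position along the body axis. Their order along each cluster follows the order in which they come on and the level of the axis they reach, so that groups 11 to 13 come on last and furthest back. In the trunk and tail, group 10 genes are known for suppressing ribs, group 11 genes for sacral vertebrae, and group 13 genes for slowing axial extension. The same genes pattern the limb bud from the stylopod to the digits, and several act in the hindgut, the cloaca and the urogenital tract. Meis proteins are homeodomain partners of Hox proteins and of Pbx.

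The control embryos had 20, 21, 23, 23 and 24 somites, and the DKO embryos had 20, 22, 23 and 24. The values of a group are given in this order throughout. Libraries held between 12.7 and 38.2 M expected counts, so that 3 counts in a library, taken as the floor, came to 0.0791 to 0.233 CPM (counts per megacount of the library, with libraries scaled by TMM, a trimmed mean of log ratios). Meis1 in the posterior piece was at 84.5 ± 15.2 CPM (SD, n = 5) in controls and 57.5 ± 11.8 (SD, n = 4) in DKO, and Meis2 at 143 ± 16.8 and 99.5 ± 11.4. In the anterior piece Meis1 was at 125 ± 8.65 and 102 ± 9.52, and Meis2 at 190 ± 10.0 and 143 ± 11.3. Both genes were thus still counted in DKO, and a count per gene does not show which exons were read. The pieces matched their labels: Msgn1, a gene of presomitic mesoderm, was at or under the floor in the 9 anterior libraries, and the 10 axial bud markers summed to 104 to 143 CPM there against 425 to 692 CPM in the posterior libraries. Sex went with somite number. The 4 embryos with 20 to 22 somites were labelled female, and those with 23 or 24 were labelled male except control embryo 1 (23 somites), labelled female, whose 2 libraries held 151 and 162 CPM of Y-linked genes against at most 0.930 CPM in the 8 other libraries labelled female. No embryo of 20 to 22 somites therefore had Y-linked counts above that level and all of 23 or 24 had, so sex and the step from 22 to 23 somites cannot be told apart.

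The genes lie in all 4 clusters (GRCm38). On chromosome 2, plus strand, Hoxd13 lies at chr2:74668310-74671599, Hoxd12 at chr2:74675013-74677705 and Hoxd11 at chr2:74679557-74687016, so that the 3 genes stand side by side. On chromosome 6, minus strand, Hoxa11 lies at chr6:52242106-52245810 and Hoxa13 at chr6:52257694-52260880. Hoxb13 lies on chromosome 11 at chr11:96194316-96197447. On chromosome 15, plus strand, Hoxc13 lies at chr15:102921103-102928814, Hoxc12 at chr15:102936757-102938609 and Hoxc11 at chr15:102954427-102957708. Counts of 2 of the genes are uncertain because a second gene overlaps them. Hoxa11os, the antisense transcript on the opposite strand, shares 1418 bases with Hoxa11, and Gm28309 shares 3571 bases with Hoxd11 on the same strand. Whether the counting used the strand was not given in the sources used here.

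In the D cluster, neighbouring genes had different slopes along somite number, 0.61 per somite on the log2 scale for Hoxd12 against 0.12 for Hoxd11 and 0.13 for Hoxd13, a difference that was not tested. The windows before their starts are shown for that reason: the 250 bases before each RefSeq start (RefSeq table, GRCm38.p6, plus strand), which end where the transcript from that start begins. Capitals mark letters that match a motif.
Hoxd13, chr2:74667975-74668224: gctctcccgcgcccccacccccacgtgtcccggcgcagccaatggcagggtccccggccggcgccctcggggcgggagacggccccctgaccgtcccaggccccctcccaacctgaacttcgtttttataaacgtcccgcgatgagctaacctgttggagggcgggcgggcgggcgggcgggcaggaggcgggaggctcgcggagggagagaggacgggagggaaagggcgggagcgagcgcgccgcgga
Hoxd12, chr2:74674763-74675012: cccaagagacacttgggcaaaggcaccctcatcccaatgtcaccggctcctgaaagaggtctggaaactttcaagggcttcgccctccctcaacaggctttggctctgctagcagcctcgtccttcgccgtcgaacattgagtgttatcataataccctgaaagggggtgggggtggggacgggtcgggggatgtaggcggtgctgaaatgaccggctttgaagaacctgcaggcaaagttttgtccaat
Hoxd11, first start, chr2:74679308-74679557: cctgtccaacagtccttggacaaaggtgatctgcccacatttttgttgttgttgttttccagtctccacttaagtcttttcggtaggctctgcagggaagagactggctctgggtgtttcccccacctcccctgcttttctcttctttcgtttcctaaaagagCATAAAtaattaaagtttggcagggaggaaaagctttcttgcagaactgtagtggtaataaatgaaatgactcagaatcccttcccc
Hoxd11, second start, chr2:74682073-74682322: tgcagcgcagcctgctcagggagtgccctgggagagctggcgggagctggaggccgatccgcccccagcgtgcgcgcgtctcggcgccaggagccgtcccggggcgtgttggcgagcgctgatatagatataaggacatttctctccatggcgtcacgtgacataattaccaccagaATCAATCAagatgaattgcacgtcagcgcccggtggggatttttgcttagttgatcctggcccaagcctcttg
Searched on both strands were TGACAG, the letters bound by Meis, TTTATG, bound by Cdx factors, and TGATNNAT, bound by Pbx with Hox. Among 32851 windows of the same length in the table, 15.9% held the Meis letters, 10.8% the Cdx letters and 7.68% the Pbx-Hox letters. Of the 9 genes, 5 had an entry, with 6 windows in all. None of the 6 held the Meis letters. The Cdx letters (CATAAA on the strand printed) stood in the window of the first Hoxd11 start and the Pbx-Hox letters (ATCAATCA) in that of the second. The windows also differed in base composition. GC was 74.4% with 31 CG pairs for Hoxd13, 55.6% with 10 for Hoxd12, 44.8% with 2 for the first Hoxd11 start and 60.4% with 20 for the second, against medians of 52.4% and 6 over all windows. These are matches of letters, and no binding was measured.

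The 9 genes covered a wide span of levels in the posterior controls. Per kilobase of exon, the scale on which genes can be compared, Hoxa11 was highest at 16.3 ± 3.61 CPM per kb (SD, n = 5). Hoxd13 followed at 13.9 ± 3.72, Hoxd11 at 10.8 ± 2.75 and Hoxc11 at 8.93 ± 2.57. A second tier held Hoxd12 at 2.63 ± 1.65 and Hoxa13 at 2.36 ± 0.510. Hoxc12 at 0.648 ± 0.520 and Hoxc13 at 0.413 ± 0.230 were lower, and Hoxb13, the only member of the B cluster, came last at a mean of 0.00856. Neighbours in this order overlapped in range except Hoxa13 over Hoxc12 and Hoxc13 over Hoxb13. The order did not follow the paralogue number. In the D cluster the group 13 gene stood above the group 11 gene on this scale in 4 of the 5 libraries. The group 12 gene had a lower mean than both. In CPM, not divided by length, Hoxd11 had the higher mean, 45.5 against 34.5 for Hoxd13. The exon lengths were 4212 bases for Hoxd11 and 2483 for Hoxd13, and the count of Hoxd11 is uncertain because of Gm28309.

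**Figure D1:**
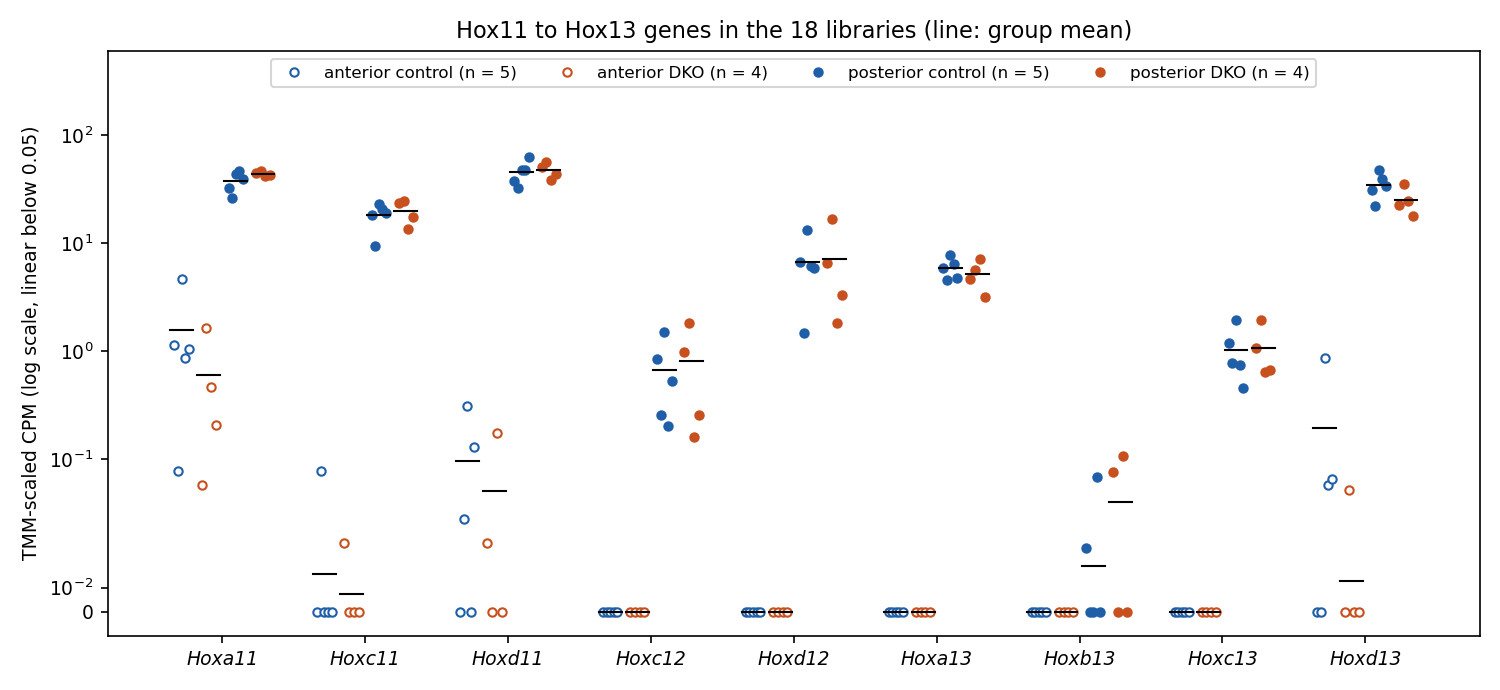
Level of each of the 9 genes in the 18 libraries, as TMM-scaled CPM on a log axis that is linear below 0.05; each point is a library and each line a group mean. The posterior points of Hoxa11, Hoxc11, Hoxd11 and Hoxd13 lie between 9.37 and 62.6 CPM, Hoxb13 lies at or under the floor everywhere, and control and DKO points overlap for every gene in the posterior piece.

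In the anterior piece the genes were nearly silent. Hoxc12, Hoxd12, Hoxa13, Hoxb13 and Hoxc13 had no count in any of the 9 anterior libraries. Hoxc11 had 2 counts in the controls together and 1 in DKO. Hoxd11 did not exceed 0.311 CPM. Only Hoxa11 and Hoxd13 stood well above the floor in any anterior library. Hoxa11 in controls was at 0.0775, 0.862, 1.13, 1.04 and 4.67 CPM, and in DKO at 0.462, 0.0572, 0.207 and 1.65 CPM. Within each genotype its highest value was in the embryo with 24 somites. Hoxd13 had 11 counts, or 0.856 CPM, in control embryo 3, the control with 24 somites, and at most 1 count in each other anterior library.

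These values set the size of the difference between the regions. Hoxa11 had enough counts in the anterior piece to pass the filter there as well. Its fitted posterior-minus-anterior difference was 4.76 on the log2 scale in controls (SE 0.514, edgeR adjusted p = 2.19e-05), and 5.62 without control embryo 3. In DKO it was 6.42 (SE 0.530, edgeR adjusted p = 2.53e-05), and 7.70 without DKO embryo 2. Of all genes, 12.1% of 15294 in controls and 8.76% of 15777 in DKO were higher in the posterior piece. Hoxc11, Hoxd11, Hoxd12, Hoxa13 and Hoxd13, and Hoxc13 in DKO, passed the filter only through the posterior libraries, where their counts were higher. Hoxb13, Hoxc12 and, in controls, Hoxc13 did not pass it. No test is therefore read from any of these. Hoxd11 had 7 anterior counts against 5463 posterior ones in controls and 5 against 4508 in DKO. Hoxd13 had 13 against 4276 in controls and 1 against 2391 in DKO, with 11 of the 13 in control embryo 3. Genes with no anterior count have only a lower bound, taken against a floor of 3 counts per library. In controls and DKO this was at least 37.6-fold and 54.6-fold higher for Hoxd12, 32.9-fold and 39.7-fold for Hoxa13, 5.74-fold and 8.29-fold for Hoxc13, and 3.77-fold and 6.22-fold for Hoxc12. Without the highest posterior library of each group, the bounds for Hoxd12 were 28.4-fold and 30.0-fold and those for Hoxc12 were 2.58-fold and 3.61-fold. The bounds follow how highly each gene is read in the posterior piece, so they give no order of how tightly the genes are held to it. For Hoxc11 the ratio of counts summed over the group, posterior to anterior, was 802 in controls after scaling for library size, with a 95% counting interval of 222 to 6628 from 2 anterior counts. In DKO it was 2055, with an interval of 368 to 81192 from 1 anterior count.

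Other Hox genes and regulators are counted here only where they, too, passed the filter in the anterior libraries alone. In groups 9 and 10, just ahead of the members in each cluster, 3 genes did, and all 3 were higher in the posterior controls: Hoxc9 by 5.23 on the log2 scale, Hoxa9 by 4.50 and Hoxb9 by 1.12. The other 4 genes of these groups (Hoxa10, Hoxc10, Hoxd9 and Hoxd10) were let in only by the posterior libraries. Of the 23 genes of groups 1 to 8, 12 were higher and 6 lower in the posterior controls, and Hoxd8 had the largest difference at 3.33. Of 15 regulators of posterior Hox genes and of axial elongation that could be counted, 10 were higher and 1 was lower. The leading ones were T, the Brachyury factor of the axial bud, at 4.51, and Cyp26a1, an enzyme that breaks down retinoic acid, at 3.68.

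The comparison of genotypes asks how these genes stand where Meis1 and Meis2 are deleted. In the posterior piece, none of the 8 testable genes was told apart between DKO and control embryos. No member passed the edgeR threshold of an adjusted p of 0.05, none had an unadjusted p under 0.05, and for none did the groups fail to overlap. Hoxd13 came nearest, with an unadjusted edgeR p of 0.0543, and it had an unadjusted p under 0.05 by DESeq2, with no filter, with either covariate (somite number or sex label), and without control embryo 2 or DKO embryo 2. Without control embryo 4, Hoxa11 had. Over all 15936 genes tested, 0.0126% passed the threshold (2 genes), 11% had an unadjusted p under 0.05 and 4.24% had groups that did not overlap, so the comparison itself made almost no calls. DESeq2 called 153 genes in the same libraries, and no member among them. The median log2 difference, DKO minus control, was 0.10 over the members and 0.01 over all genes.

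Within group 11, which marks the sacral level, Hoxa11 was at 25.9, 45.8, 32.1, 39.1 and 43.5 CPM in posterior controls and at 41.2, 44.5, 42.6 and 46.5 CPM in DKO. The DKO libraries lay close together inside the upper part of the control range, with 1 above it. The difference was 0.23 on the log2 scale (SE 0.144, edgeR adjusted p = 0.535), from 0.12 without control embryo 2 to 0.31 without control embryo 4. Hoxc11 was at 9.37, 20.8, 18.1, 19 and 23.0 CPM in controls and at 13.3, 23.2, 17.4 and 24.5 CPM in DKO. The lowest library of each genotype was the one with 20 somites, and the difference between genotypes was 0.12 (SE 0.242, edgeR adjusted p = 0.851). Hoxd11 was at 32.4, 47.5, 37.3, 62.6 and 47.5 CPM in controls and at 38.3, 50.8, 43.6 and 55.7 CPM in DKO, a difference of 0.06 (SE 0.173, edgeR adjusted p = 0.908). All DKO values of Hoxd11 lay within the range of the controls. Adding the counts of Hoxa11os to Hoxa11 gave a difference of 0.26 (SE 0.164, edgeR adjusted p = 0.535).

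Relative to their means, the group 12 genes varied most of the tested members between embryos of the same genotype. Hoxd12 was at 1.46, 6.12, 6.65, 5.89 and 13.2 CPM in controls and at 1.82, 6.55, 3.28 and 16.6 CPM in DKO. In each genotype the embryo with 20 somites was lowest and the embryo with 24 somites highest. The difference between genotypes was 0.11 (SE 0.616, edgeR adjusted p = 0.955), and it turned to −0.07 with somite number as a covariate. Hoxc12 was at 0.258, 0.204, 0.844, 0.524 and 1.51 CPM in controls and at 0.160, 0.984, 0.256 and 1.81 CPM in DKO. These are 3 to 52 expected counts per library, so the low values carry wide counting error. The embryo with 24 somites was again highest in each genotype. The difference was 0.33 (SE 0.702, edgeR adjusted p = 0.864).

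In group 13, Hoxd13, a gene of digits and genital tubercle, had the largest difference of the members. It was at 22.0, 38.9, 31.0, 33.9 and 46.9 CPM in controls and at 24.4, 22.3, 17.9 and 34.8 CPM in DKO. Both ranges overlapped: 2 controls stood above every DKO library, and the DKO embryo with 24 somites stood above the other 3 controls. The difference was −0.47 (SE 0.220, edgeR adjusted p = 0.461). Leaving out each embryo in turn gave −0.68 to −0.34. Evx2, its neighbour, chosen here after its value was seen, stood at −0.74 (edgeR adjusted p = 0.446). Hoxa13, needed for the autopod and the umbilical arteries, was at 4.55, 6.33, 5.85, 4.78 and 7.67 CPM in controls and at 7.10, 4.62, 3.18 and 5.65 CPM in DKO. It gave −0.19 (SE 0.228, edgeR adjusted p = 0.744), with ranges that overlapped, and ran from −0.38 without DKO embryo 3 to −0.025 without DKO embryo 4. Hoxc13, known for hair and nail, was at 0.773, 0.748, 1.19, 0.458 and 1.92 CPM in controls and at 0.641, 1.06, 0.666 and 1.92 CPM in DKO. Both 24-somite embryos were highest, and the genotypes differed by 0.09 (SE 0.441, edgeR adjusted p = 0.945). Hoxb13, a gene of the tail tip and later the prostate, had 0 to 2 counts per posterior library and was not tested.

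The Hox genes ahead of these gave no call either. Over all 15936 genes tested, 8345 were higher in DKO, 11% had an unadjusted p under 0.05 and 4.24% had groups that did not overlap. Of 23 genes of groups 1 to 8, 19 were higher in DKO, with a median of 0.15. Of the 23, 5 had an unadjusted p under 0.05 and none passed the threshold. Hoxc5 among them had groups that did not overlap (0.37, edgeR adjusted p = 0.351). Of the 7 genes of groups 9 and 10, 6 were higher, with a median of 0.19 and 3 at an unadjusted p under 0.05. Hoxa10 was the one of these 7 whose groups did not overlap (0.26, edgeR adjusted p = 0.282). The 21 regulators had a median of 0.08, with 4 at an unadjusted p under 0.05 and none past the threshold. Markers of other cell types were also read in these libraries, and none of them passed the threshold. The 8 tested markers of differentiating somites had a median of −0.38, with 7 lower in DKO, 2 at an unadjusted p under 0.05 and sums of 131 to 276 CPM in DKO against 260 to 333 CPM in controls. The 6 erythroid markers were all higher, with a median of 0.52 and 5 at an unadjusted p under 0.05. The 4 hindlimb markers were all lower, with a median of −0.44, 2 at an unadjusted p under 0.05, and sums of 48.4 to 120 CPM against 76.1 to 122 CPM. The 10 axial bud markers were all higher, with a median of 0.16, and 5 of 6 neural tube markers were, with a median of 0.27. Of the 6 allantois and body wall markers 5 were lower, with a median of −0.19. Of the 8 hindgut and tailgut markers 7 were higher, with a median of 0.30, 4 at an unadjusted p under 0.05, and sums of 312 to 401 CPM against 218 to 315 CPM. Their part in the values of Hoxd13 and Hoxa13 was not tested.

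**Figure D2:**
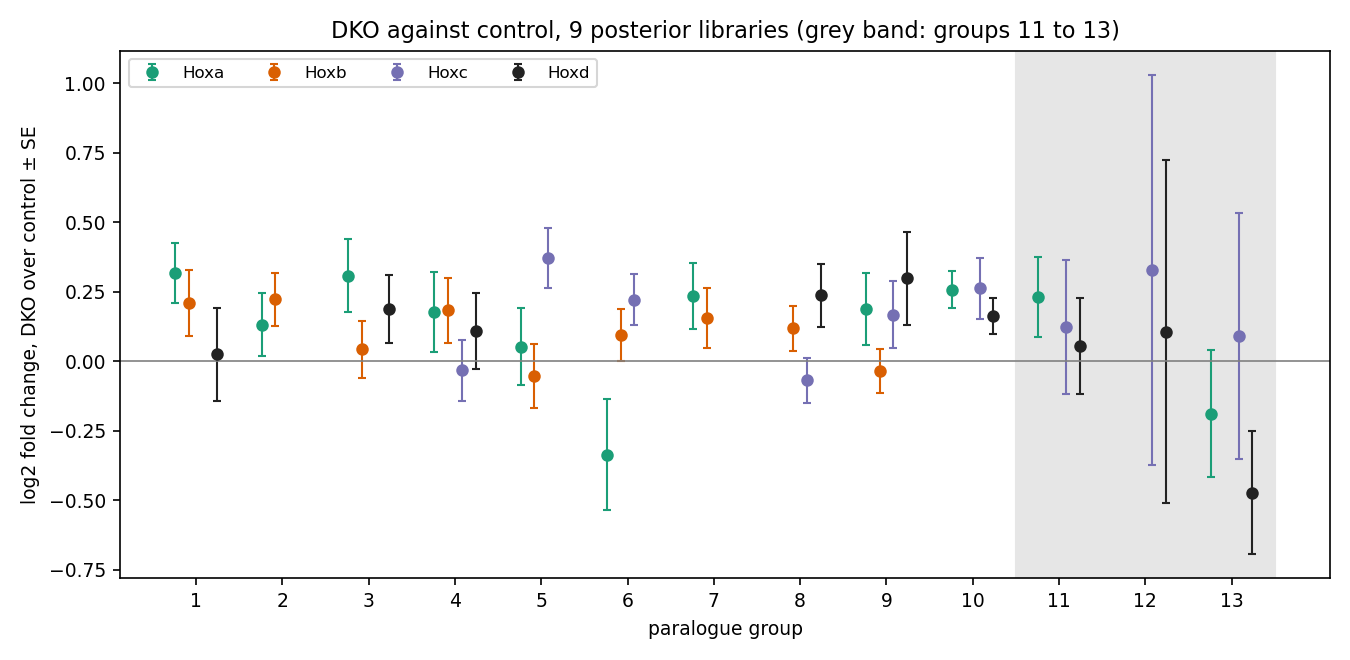
DKO minus control in the posterior libraries for every tested Hox gene, by paralogue group (x axis) and cluster (colour), as fitted log2 differences with bars of 1 standard error. Genes of groups 1 to 10 lie mostly slightly above 0, the members straddle 0, Hoxd13 is lowest among them at −0.47, and the bars of Hoxc12 and Hoxd12 are the widest of the members.

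In the anterior piece only Hoxa11 had enough counts to be tested between genotypes. It stood at −1.42 on the log2 scale in DKO (SE 0.984, edgeR adjusted p = 0.586), in a comparison where 0.0394% of 15238 genes passed the threshold. The value depended on single embryos: it was −0.45 without control embryo 3 and −2.76 without DKO embryo 2, the ends of the range over left-out embryos. The anterior library of control embryo 3 was also the highest in summed forelimb and body wall markers. Its forelimb markers Tbx5 and Fgf10 were at 12.2 and 9.80 CPM and summed to 22.0 CPM, against 2.66 to 6.66 CPM in the other 8 anterior libraries. Its allantois and body wall markers summed to 127 CPM against 40.2 to 67.3 CPM, of which Prrx1 gave 91.6 CPM. Within that list Hand1 was higher in control embryo 2 (8.72 against 8.40 CPM) and Isl1 in DKO embryo 2 (19.3 against 15.6 CPM). Its 4 hindlimb markers, of which Fgf10 is also a forelimb marker, summed to 27.5 CPM against 7.74 to 21.0 CPM. Its axial bud markers summed to 104 CPM, within the range of the anterior libraries. Msgn1 and Cdx4 were at 0 in it, as in other anterior libraries. Its Hox genes of groups 9 and 10 summed to 194 CPM, the highest of the anterior libraries, followed by DKO embryo 2 at 183 CPM. The part of these genes in the Hoxa11 and Hoxd13 counts of control embryo 3 was not tested. The difference of the DKO effect on Hoxa11 between the regions was 1.66 (SE 0.883, edgeR adjusted p = 0.999), in a test that called 0% of 16428 genes, 567 of which (3.45%) had an unadjusted p under 0.05. DESeq2 called 9 genes there, and not Hoxa11. Over the left-out embryos the value ran from 0.79 without control embryo 3 to 2.93 without DKO embryo 2.

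Within the posterior libraries the embryos also differed in age, given by somite number. With genotype in the model, Hoxc12 and Hoxd12 had the steepest fitted slopes of the members, at 0.69 (SE 0.171) and 0.61 (SE 0.132) per somite on the log2 scale. No member passed the edgeR threshold, with adjusted p = 0.270 for Hoxc12 and 0.198 for Hoxd12. Over all 15936 genes 0.0126% passed, 2 genes that both fell. At an unadjusted p under 0.05 stood 5 of the 8 tested members against 6.42% of all genes, and 7 of 8 slopes were above 0 against 51.3%. The median slope was 0.16 over the members and 0.00 over all genes. DESeq2 called 135 genes, among them Hoxd12 (0.62 per somite, DESeq2 adjusted p = 0.000196) and no other member.

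The ends of the series were also set side by side. From 20 to 24 somites, with 1 library at each end per genotype, Hoxd12 was 9.01-fold higher in controls and 9.15-fold in DKO. Hoxc12 was 5.87-fold and 11.3-fold higher, the latter from 3 expected counts at 20 somites. Hoxc13 was 2.48-fold and 3.0-fold higher, Hoxc11 2.46-fold and 1.84-fold, and Hoxd13 2.13-fold and 1.42-fold. Hoxd11 was 1.46-fold and 1.45-fold higher. Hoxd12 thus had a larger fold than either of its neighbours in the D cluster, a difference that was not tested. Hoxa11 was 1.68-fold and 1.13-fold higher. Hoxa13 was the one gene for which the genotypes went opposite ways, at 1.68-fold in controls and 0.796-fold in DKO. An embryo with 24 somites was the highest library for 7 of the 8 genes, and an embryo with 20 somites the lowest for 5.

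**Figure D3:**
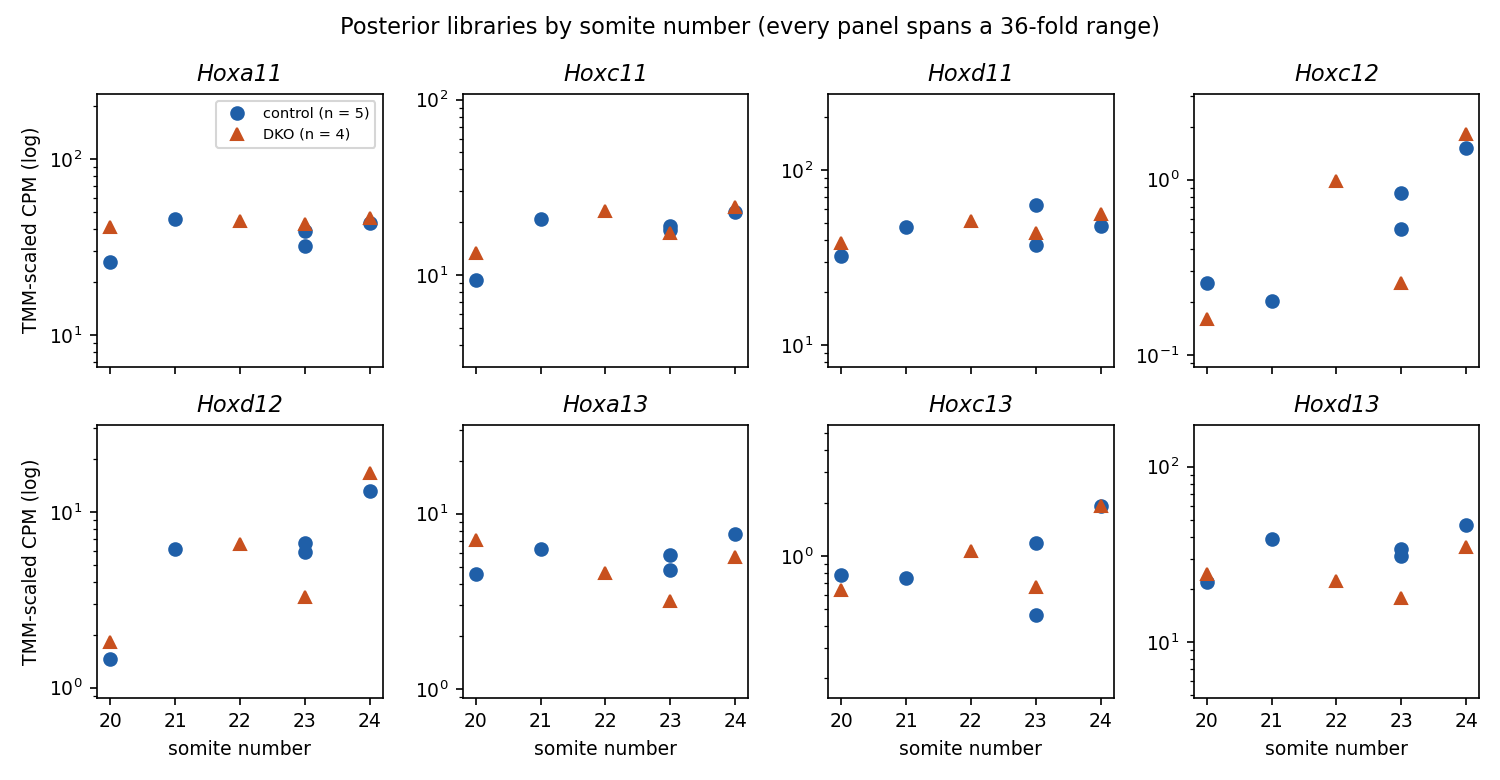
TMM-scaled CPM (log axis) of each tested gene in the 9 posterior libraries against somite number, with circles for controls and triangles for DKO; every panel spans the same fold range. Hoxd12 lies at 1.46 and 1.82 CPM at 20 somites, at 3.28 to 6.65 CPM from 21 to 23, and at 13.2 and 16.6 CPM at 24. Hoxa13 lies between 3.18 and 7.67 CPM and Hoxd11 between 32.4 and 62.6 CPM.

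The other slopes were smaller. Hoxc13 had 0.30 per somite (SE 0.123, edgeR adjusted p = 0.709), Hoxc11 0.20 (SE 0.0644, edgeR adjusted p = 0.508), Hoxd13 0.13 (SE 0.0644, edgeR adjusted p = 0.883) and Hoxd11 0.12 (SE 0.0513, edgeR adjusted p = 0.769). Hoxa11 (0.06, SE 0.0477) and Hoxa13 (−0.01, SE 0.0771) had the smallest. Single embryos moved these slopes. Without control embryo 2, one of those with 20 somites, they were 0.12 for Hoxc11, 0.071 for Hoxd13, 0.075 for Hoxd11 and 0.0017 for Hoxa11. The highest values without 1 embryo were 0.25 for Hoxc11, 0.13 for Hoxd11 and 0.10 for Hoxa11 (without control embryo 4) and 0.19 for Hoxd13 (without DKO embryo 3). Hoxc13 ran from 0.22 to 0.36. The slope of Hoxa11 also depended on its antisense partner: with the counts of Hoxa11os added it was 0.13 (SE 0.0442, edgeR adjusted p = 0.573). Hoxa11os alone had 0.21 (edgeR adjusted p = 0.198). Hotair, a noncoding transcript beside Hoxc11 and Hoxc12, had 0.58 (edgeR adjusted p = 0.288) and was 7.72-fold and 5.16-fold higher at 24 than at 20 somites.

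Among the members, correlation of the log2 level with somite number over the 9 posterior libraries was also highest for Hoxd12 and Hoxc12. Pearson's r was 0.842 for Hoxd12 (exact permutation p = 0.00456, adjusted 0.585 over 15936 genes), with Spearman's rho at 0.804 (exact permutation p = 0.0127). For Hoxc12 r was 0.800 (exact permutation p = 0.0142, adjusted 0.707), with rho at 0.846 (exact permutation p = 0.00622). Hoxc11 had r at 0.753 (exact permutation p = 0.0140, adjusted 0.707) and rho at 0.641 (exact permutation p = 0.0708). The permutations were two-sided, and 5.56% of all genes had a Pearson p under 0.05. Without the 2 libraries of 20 somites, those farthest from the median, r was 0.545 for Hoxd12, 0.706 for Hoxc12 and 0.186 for Hoxc11, so the relation of Hoxc11 rests on those libraries. The other 5 genes had r from −0.0369 (Hoxa13) to 0.603 (Hoxd11), with exact permutation p-values of 0.0883 or more.

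The course of Hoxd12 was also read within each sex. Among the embryos without Y-linked counts Hoxd12 was at 1.46 and 1.82 CPM with 20 somites and at 6.12 and 6.55 CPM with 21 and 22. Among those with Y-linked counts it was at 6.65, 5.89 and 3.28 CPM with 23 somites and at 13.2 and 16.6 CPM with 24. No test was made within these sets of 4 and 5 libraries, where each somite number holds 1 to 3 embryos. With the sex label in the model the slope was 0.83 for Hoxd12 (SE 0.217, edgeR adjusted p = 0.708) and 0.99 for Hoxc12 (SE 0.257, edgeR adjusted p = 0.708). Leaving out control embryo 1 as well gave 1.32 (SE 0.230, edgeR adjusted p = 0.471) and 1.41 (SE 0.364, edgeR adjusted p = 0.809). In that fit Hoxc11 had 0.50, Hoxc13 0.66, Hoxd13 0.29, Hoxd11 0.20 and Hoxa11 0.19. Both fits were chosen after the data were seen, and neither brought a member past the threshold.

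The slopes did not separate the genotypes. Over the 8 genes, the slope in DKO minus that in controls ran from −0.24 per somite for Hoxa13 (SE 0.143) to 0.16 for Hoxd12 (SE 0.269), on the log2 scale. The SE reached 0.321 for Hoxc12, against a median slope of 0.16 over the members, so a shared slope is not shown either. None passed the threshold, as 0% of 15936 genes did, while 450 (2.82%) had an unadjusted p under 0.05. DESeq2 called 35 genes, and no member.

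**Figure D4:**
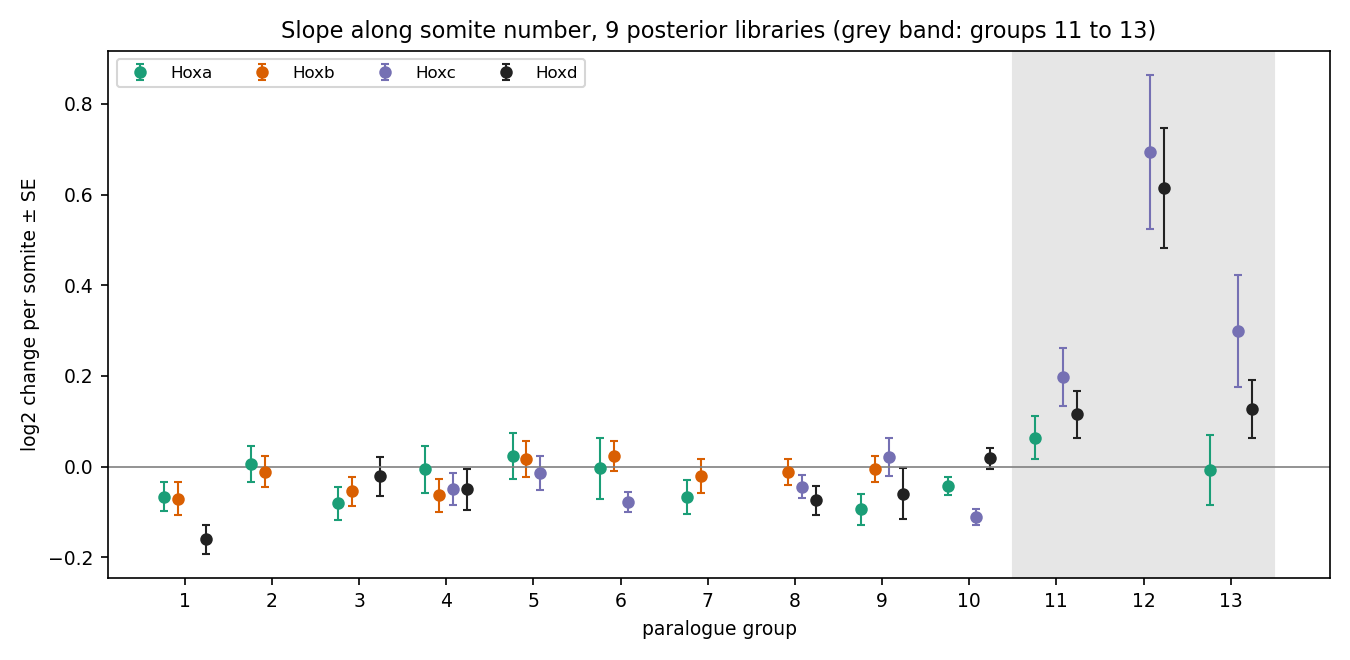
Slope of each tested Hox gene per somite in the posterior libraries, as fitted log2 values with bars of 1 standard error, by paralogue group (x axis) and cluster (colour), with groups 11 to 13 in the grey band. Genes of groups 1 to 10 lie near or slightly below 0, while Hoxc12 and Hoxd12 stand at 0.69 and 0.61 and Hoxc13 at 0.30.

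The more anterior Hox genes were read along somite number in the same fit. Of the 23 genes of groups 1 to 8, 4 had a slope above 0, with a median of −0.04, and of the 7 genes of groups 9 and 10, 2 had, also with a median of −0.04. Hoxc10, the gene next to Hoxc11, had −0.11 (edgeR adjusted p = 0.133). No gene of either set passed the threshold, and the difference between these sets and the members was not tested. Slopes of the regulators of posterior Hox genes and of axial elongation leaned below 0. Of these 21 genes, 2 had a slope above 0, with a median of −0.11 and 12 at an unadjusted p under 0.05. Examples, chosen after their values were seen, are the caudal homeobox genes Cdx4 at −0.28 (edgeR adjusted p = 0.116) and Cdx2 at −0.21 (edgeR adjusted p = 0.193), and T (Brachyury) at −0.16 (edgeR adjusted p = 0.157). None passed the threshold. Marker lists were read along somite number as well, and no marker in them passed the threshold. None of the 10 axial bud markers had a slope above 0 (median −0.13, 8 at an unadjusted p under 0.05). This list shares T, Wnt3a, Fgf8, Cyp26a1 and Nkx1-2 with the regulators, so the readings of both lists overlap. All 8 tested markers of differentiating somites had a slope above 0 (median 0.22, 6 at an unadjusted p under 0.05). All 6 neural tube and all 6 erythroid markers also had slopes above 0, and none of the 4 hindlimb markers had. Their part in the slopes of Hoxc12 and Hoxd12 was not tested.

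Hoxa13, with a fitted slope of −0.01 per somite (SE 0.0771), was highest in libraries of different ages. The 3 posterior libraries with the most Hoxa13, control embryo 3 (7.67 CPM), DKO embryo 3 (7.10 CPM) and control embryo 4 (6.33 CPM), had 24, 20 and 21 somites. The same 3 libraries had the highest summed levels of the 6 allantois and body wall markers, at 202, 211 and 218 CPM, against 113 to 164 CPM in the other 6. They were also the highest in the 4 hindlimb markers, a list that shares Tbx4, Pitx1 and Isl1 with it, at 111, 120 and 122 CPM against 48.4 to 86.5 CPM. This was noticed in the data and was not tested.

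**Figure D5:**
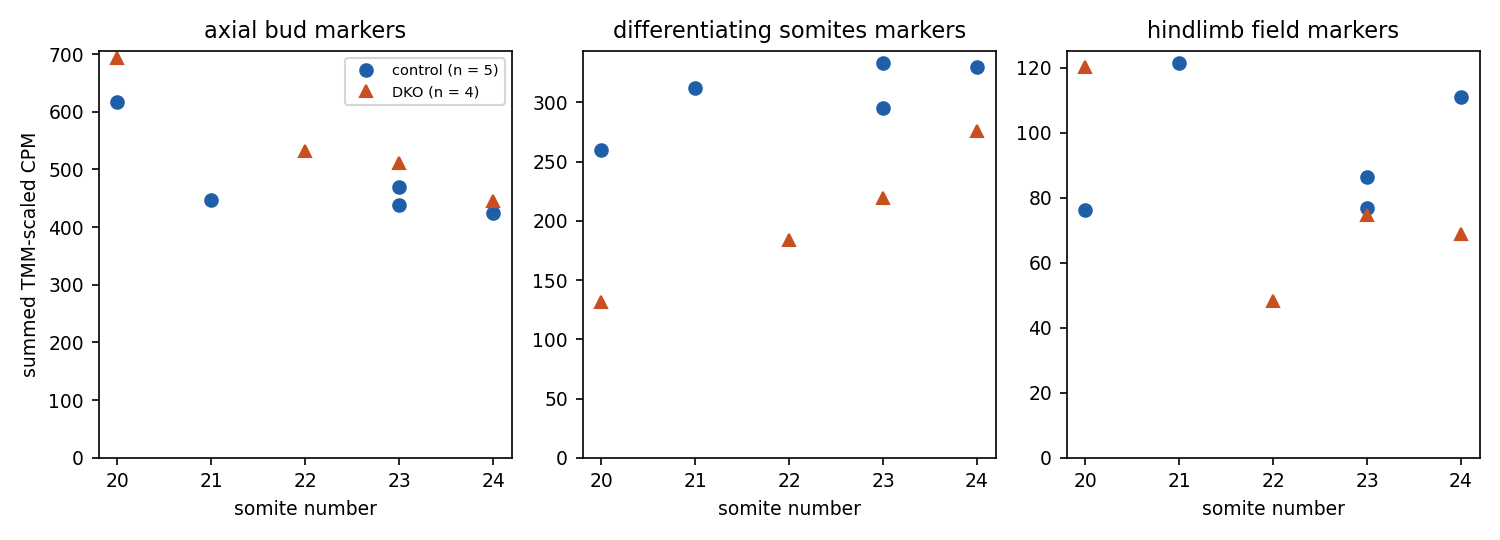
Summed TMM-scaled CPM of 3 marker lists in the 9 posterior libraries against somite number, with circles for controls and triangles for DKO. Axial bud markers are highest at 20 somites, differentiating somite markers lie at 131 to 276 CPM in DKO and 260 to 333 CPM in controls, and the 3 highest hindlimb sums, 111 to 122 CPM, fall at 20, 21 and 24 somites.

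In the main fits, Hoxa11 in the anterior piece, the only member tested there, had the largest slope of any member, at low counts. The slope was 0.84 per somite on the log2 scale (SE 0.254, edgeR adjusted p = 0.206) and did not pass the threshold. In this comparison, added after the values were seen, 0.0328% of 15238 genes passed the threshold and 12.9% had an unadjusted p under 0.05. Leaving out each embryo gave 0.64 to 1.21. All the other members were too low in the anterior piece to be followed there.

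The genes whose course over the 9 posterior libraries was most like that of the members were found by correlation with the mean standardised level of the 6 members with at least 50 counts on average (Hoxa11, Hoxc11, Hoxd11, Hoxd12, Hoxa13 and Hoxd13). Among 11762 protein-coding genes outside the Hox clusters, the median r was 0.0297 and the 99th percentile 0.829. The nearest were Robo4 (r = 0.977), a roundabout receptor of endothelium, Hist2h2be (0.953), a histone H2B gene, Ubn1 (0.950), a histone chaperone subunit, Nedd9 (0.950), an adhesion scaffold, and Scube1 (0.938), a secreted EGF-domain protein. With 9 libraries and so many genes these are a description. Among the other Hox genes the nearest was Hoxd10, with r at 0.357, and the farthest Hoxc4, at −0.823.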

How the data were processed

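The deposited values are expected counts for Ensembl genes on GRCm38, which the authors made with CASAVA, cutadapt and RSEM, per the submitters' processing notes, which name no versions. Poly(A) libraries were prepared with NEBNext and read from a single end at 61 bp, per the labels' protocols. No count column was left unused.

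Counts were rounded and tested with edgeR 4.0.16 in R 4.3.3 (filterByExpr with minimum count 10 and minimum total 15, TMM, glmQLFit and glmQLFTest, Benjamini-Hochberg adjustment over all genes tested, threshold 0.05). The standard error is the size of the log2 difference over the square root of F. Log2 levels used a prior count of 2. DESeq2 1.42.0, RLE size factors, no filter, covariates and leaving out each embryo were alternatives, and the edgeR code was tested on simulated data. Permutations ran over the distinct orders of somite numbers. Symbols came from GENCODE M21 (53360 of 53465 identifiers matched). Exon length is the union of a gene's exons.

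Nothing says how embryos were distributed over litters, so p-values measure the spread between these embryos. The 2 libraries of an embryo were matched by its genotype, sex label and number of somites, which fitted 1 embryo each. After group means were removed, libraries of the same embryo correlated at 0.256 to 0.570 in 9 pairs, and those of different embryos at −0.283 to 0.0916. Intervals and floors cover counting error only.

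All 9 members are named, with Meis1 and Meis2, the list members past the threshold with groups that do not overlap (up to 5 per direction) and the 5 genes most like the members. The members and lists were chosen with earlier results of these data known.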

Additional observations from a re-analysis of the deposited data

Results flagged for a closer look

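In 21 groups of 4 or 5 libraries with counts, a single library was tested for standing far from the rest, and 3 were found. Chance gives about 1 in 20 for evenly measured values, a rate that was not checked for groups of mostly 0 counts such as those of Hoxd11 and Hoxd13. Hoxa11 in anterior control embryo 3 was at 4.67 CPM, with the nearest other control at 1.13 CPM. Hoxd13 in the same library was at 0.856 CPM, with the nearest at 0.0648 CPM. Hoxd11 in anterior DKO embryo 3 was at 0.173 CPM, with the nearest at 0.0286 CPM; this is about 3 counts, near the floor.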

How the results depend on the processing

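Other settings moved the number of genes called more than the members' values. In the posterior comparison of genotypes, with 2 genes past the threshold, DESeq2 called 153, no filter 14, somite number as a covariate 7, and leaving out each embryo 2 to 24. In the anterior comparison, with 6, the numbers were 275 by DESeq2, 83 with no filter, 84 with somite number and 71 with the sex label as covariates, and 1 to 57 without an embryo. The interaction, with 0, gave 9 by DESeq2 and 0 to 1 without an embryo. The posterior slope, with 2, gave 135 by DESeq2 (1 of them a member, Hoxd12), 29 with no filter, 0 with the sex label, 1 with the sex label and without control embryo 1, and 0 to 29 without an embryo. The slope difference, with 0, gave 35 by DESeq2 and 4 with no filter. The anterior slope, with 5, gave 343 by DESeq2, 162 with no filter, 0 and 1 in the fits with the sex label, and 0 to 134 without an embryo. Posterior against anterior in DKO, with 2913, gave 1728 to 2550 without an embryo.

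Directions of several members between genotypes were not fixed. Hoxd12 turned to −0.073 and −0.063 with somite number and with the sex label as covariates. Without 1 embryo the difference ran from −0.76 to 0.50 for Hoxd12, −0.44 to 0.83 for Hoxc12, −0.36 to 0.42 for Hoxc13, −0.041 to 0.27 for Hoxc11 and −0.042 to 0.20 for Hoxd11. The slope difference of Hoxc12 turned to 0.024 by DESeq2 and 0.0060 with no filter. Without 1 embryo slope differences ran from −0.14 to 0.093 (Hoxa11), −0.48 to 0.042 (Hoxa13), −0.17 to 0.16 (Hoxc11), −0.30 to 0.18 (Hoxc12), −0.19 to 0.27 (Hoxc13), −0.052 to 0.11 (Hoxd11), −0.14 to 0.40 (Hoxd12) and −0.30 to 0.16 (Hoxd13). The slope of Hoxa13 ran from −0.068 to 0.11 without 1 embryo and was 0.042 and 0.11 in the fits with the sex label. Without the 2 libraries of 20 somites, r was −0.125 for Hoxa11 and 0.119 for Hoxa13. The causes were not tested. All tested members but Hoxa13 kept the direction of their fitted slope in every setting. Without 1 embryo the slopes of Hoxd12 and Hoxc12 were 0.51 to 0.74 and 0.63 to 0.79.

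With the embryo as a replicate block, posterior against anterior gave 4.83 for Hoxa11 in controls, and the interaction for Hoxa11 gave 1.63 (edgeR adjusted p = 0.851); the pairing changed no member's call. Low counts limit the reading of Hoxc12, Hoxc13 and Hoxb13 behind and of every member but Hoxa11 in the anterior piece. With 1 to 3 embryos per somite number, age and embryo are hard to separate.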
